A study of Caenorhabditis elegans with 2 samples.

Results

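The regions described here were the places on the autosomes of Caenorhabditis elegans where tagged LIN-14 was enriched far from any protein-coding gene start. Overlapping peaks of the authors' list thresholded by irreproducible discovery rate (IDR) were merged into 11115 regions, of which 8260 were autosomal. A region was kept when the summit of its strongest peak lay outside every protein-coding gene body, over 500 bp beyond gene 3′ ends and more than 3 kb from the nearest 5′ end of an annotated protein-coding transcript. This left 1041 regions, out of 4370 autosomal intergenic ones. The choice among the listed regions used positions only, so non-coding neighbours and sequence content were free to vary. Scores could vary only above the floor of the thresholded list, in which the lowest region score was 147.5.

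The peaks came from chromatin immunoprecipitation sequencing (ChIP-seq) of whole, mixed-sex L1 larvae at 6 hours, in 1 group with 2 biological replicates. The strain was OP768, in which an unc-119(tm4063) mutation is covered by the insertion wgls768, carrying lin-14::TY1::EGFP::3xFLAG with unc-119(+). The labels describe the larvae as synchronised by starvation after bleaching, and feeding after that was not given in the sources used here. Sonicated chromatin was precipitated with an antibody against GFP. The transgene adds copies of lin-14, which is X-linked, and of unc-119, near which no member lay within 20000 bp. In whole animals the enrichment cannot be assigned to a tissue. Read depth is unknown, since the peak lists hold no counts.

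LIN-14 is a nuclear DNA-binding protein that acts early in the heterochronic pathway, in which it specifies the events of the first larval stage. The C. elegans genome is compact, and most known regulatory sequence lies close to gene starts. Sites several kilobases away from any coding gene start are therefore described here separately, although some lie near a coding 3′ end. Many worm messenger RNAs receive a spliced leader in trans, which removes the original 5′ end, and the annotated start can therefore lie downstream of where transcription begins. Intergenic stretches also hold genes for non-coding RNAs, among them long intergenic RNAs (lincRNAs), microRNAs, small nucleolar RNAs (snoRNAs) that guide RNA modification, and transfer RNAs.

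Sequence around the summits is shown for 6 of the 7 strongest members and for the strongest member of the largest group of neighbouring regions, as examples of strong single regions and of a run of regions described later. Each line gives 101 bases centred on the summit, from the plus strand of WBcel235 (ce11) as held by RefSeq, named by the nearest coding gene. Capitals mark GAGAG or its reverse complement CTCTC, and TGCGTC or its reverse complement GACGCA. Matches may overlap each other.
cmd-1 (chrV:1151481-1151581): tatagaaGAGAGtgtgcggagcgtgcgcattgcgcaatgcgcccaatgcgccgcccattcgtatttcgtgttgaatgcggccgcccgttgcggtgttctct
F42C5.9 (chrIV:7320101-7320201): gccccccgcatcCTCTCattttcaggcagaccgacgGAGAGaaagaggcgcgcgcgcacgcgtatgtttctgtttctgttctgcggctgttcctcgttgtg
aakg-1 (chrIII:12583627-12583727): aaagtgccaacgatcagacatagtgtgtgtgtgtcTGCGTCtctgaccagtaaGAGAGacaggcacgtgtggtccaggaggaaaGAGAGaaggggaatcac
T19C3.4 (chrIII:623898-623998): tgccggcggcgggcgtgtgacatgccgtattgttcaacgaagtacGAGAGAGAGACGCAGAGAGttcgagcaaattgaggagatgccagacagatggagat
F54F12.1 (chrIII:13062598-13062698): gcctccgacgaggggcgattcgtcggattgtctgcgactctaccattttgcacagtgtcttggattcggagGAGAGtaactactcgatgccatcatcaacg
saeg-1 (chrV:10871562-10871662): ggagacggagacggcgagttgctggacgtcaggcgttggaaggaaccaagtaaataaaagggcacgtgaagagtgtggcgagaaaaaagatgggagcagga
egl-27 (chrII:6827575-6827675): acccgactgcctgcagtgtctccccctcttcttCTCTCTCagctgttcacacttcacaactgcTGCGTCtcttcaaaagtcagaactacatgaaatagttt

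The window nearest T19C3.4 held 4 GAGAG matches and 1 TGCGTC match in a single run of capitals. The windows nearest aakg-1 and egl-27 each held 2 GAGAG matches and 1 TGCGTC match. The window nearest saeg-1 held neither, although its region had a score of 3484.

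Scores of the distal regions were mostly low, with a small number of very strong ones. The score is the value by which the authors' peak caller graded a peak and is not a read count. It ran from 147.6 to 13287.5 over the 1041 members, with a median of 312.9 and quartiles at 213.8 and 566.6. The median was 497.8 for the 1961 autosomal intergenic regions within 1 kb of a coding 5′ end, 386.0 for the 1368 at 1 to 3 kb, and 365.5 for all 11115 regions. A score of at least 1000 was reached by 113 members (10.9%), compared with 22.3% within 1 kb and 15.1% at 1 to 3 kb. Among the 100 strongest of all 11115 regions there were 6 of the 1041 members, and among the 1000 strongest there were 62. The same counts were 31 and 287 for the 1961 regions within 1 kb, and 11 and 133 for the 1368 at 1 to 3 kb. The members had a median width of 392 bp, and 25 of them were merged from several peaks.

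The strongest members lay beside genes of varied function. The first, 4740 bp upstream of cmd-1, which encodes calmodulin, had a score of 13287.5 (7583 in replicate 1 and 5757 in replicate 2) and lay inside linc-128 (chromosome V, 1150906 to 1153207, plus strand). On the other side lay the 3′ end of cutl-22, at 5030 bp. A second member lay 451 bp from linc-128, with a score of 700.1. Scores fell 2.93-fold from the first member to the second strongest, and the next 14 then declined gradually from 4535 to 2861.

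The second strongest member (chromosome IV, 7319842 to 7320557) scored 4535, with 2567 and 1985 in the replicates. Its summit lay inside the non-coding gene F42C5.16, 3048 bp upstream of F42C5.9 and 583 bp beyond the 3′ end of ifo-1, an organiser of intestinal intermediate filaments. The third (chromosome III, 12583447 to 12583929) scored 4484, with 2389 and 2115 in the replicates. It lay 8276 bp upstream of aakg-1, a gamma subunit of the energy sensor AMP-activated kinase, and no non-coding gene was nearer than 24868 bp. A similar isolation from non-coding genes was seen at klu-1, a zinc-finger gene (score 4275, replicates 2552 and 1765, 3629 bp upstream), with 21810 bp to the nearest one.

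Short non-coding genes lay close to several others. The member 3694 bp upstream of T19C3.4 (chromosome III, score 4150, replicates 2378 and 1805) was 33 bp from T19C3.11. At lip-1, which encodes a phosphatase that inactivates MAP kinase, the member (chromosome IV, score 3461, replicates 1965 and 1522) was 3693 bp upstream and 42 bp from C05B10.19. A member between the converging genes gdh-1, for glutamate dehydrogenase, and tgt-1, for a tRNA-guanine transglycosylase, lay inside ZK829.13 with a score of 3135 (replicates 1645 and 1497). It was 1010 bp from gdh-1 and 996 bp from tgt-1, and its nearest coding 5′ end, that of tgt-1, was 3253 bp away. Of the 15 strongest members, 3 had their summit inside a non-coding gene, and 6 lay within 1 kb of one.

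The other strong members included a pair upstream of F54F12.1 on chromosome III, at 7206 bp (score 3791, replicates 1974 and 1837) and 5868 bp (score 3365, replicates 1798 and 1587). The member at saeg-1, a regulator of cGMP-dependent kinase signalling, lay 5913 bp upstream (score 3484, replicates 1890 and 1579). The one nearest atfs-1, the transcription factor of the mitochondrial unfolded protein response, lay beyond the gene, 3934 bp downstream of its 5′ end (score 3442, replicates 1807 and 1659). A member 4648 bp upstream of the nuclear receptor gene nhr-20 scored 3076 (replicates 1732 and 1360). The remaining ones were nearest R06C1.4 (3294), T20D4.15 (3218) and slc-17.7 (2861). Replicate 1 was higher than replicate 2 at all 15.

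**Figure D1:**
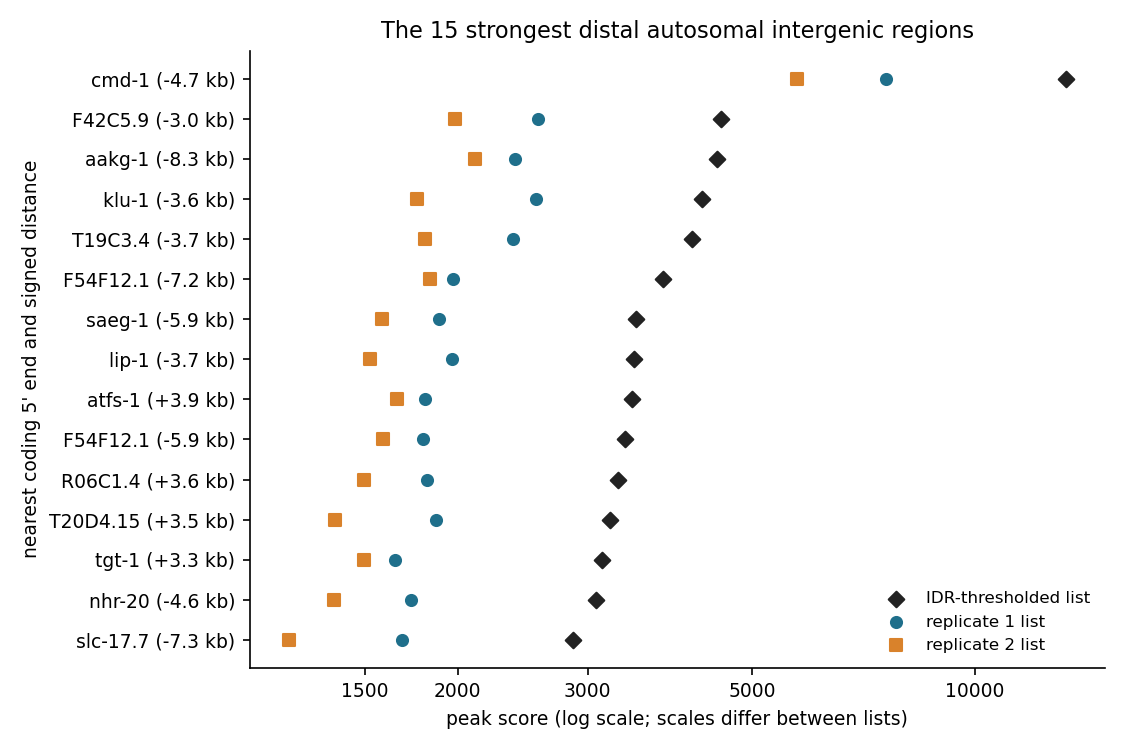
Peak scores (log axis) of the 15 strongest distal regions in the IDR-thresholded list (diamonds) and in the lists of replicate 1 (circles) and replicate 2 (squares). Rows are named by the nearest coding 5′ end with the signed distance in kb, minus meaning upstream. The top member stands apart from the rest in each list, at 13287.5, 7583 and 5757.

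At the other end of the range, the lowest score, 147.6, belonged to a member 6069 bp upstream of ser-4, a serotonin receptor gene, with 75.7 and 77.0 in the replicates. The member nearest to the distance limit lay 3001 bp upstream of nhr-138 and scored 155.0 (replicates 78.5 and 81.1). The next, named after its value was seen, scored 238.9 at 3002 bp from W09D10.4. Just outside the limit, at 2999 bp, regions at egl-27 and ssp-34, also named after their values were seen, scored 447.9 and 235.7. Medians on the 2 sides were 327.9 for 249 regions at 2500 to 3000 bp and 319.4 for 212 members at 3000 to 3500 bp. The most distant member lay 15050 bp downstream of the T06A4.1 5′ end, inside the non-coding gene T06A4.7, and scored 435.7 (replicates 259.9 and 187.7).

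Nearly all distal regions were found in both replicate lists. A summit within 100 bp was present in both for 1017 of 1041 members (97.7%, 95% exact binomial interval 96.6 to 98.5%), in replicate 1 alone for 13 and in replicate 2 alone for 11. The share was 97.03% over all 11115 regions. Because the IDR-thresholded list was derived from the replicate and pooled lists, this match is not an independent measure of agreement. The 24 members without a match in both had a median score of 193.2. Replicate 1 scored higher at most members, with a median log2 ratio of 0.35 (SD 0.39 across members), and 26 members departed from that shift by over 2-fold. The median score was 179.6 in replicate 1 and 140.7 in replicate 2. Log2 scores of the replicates had a Pearson's r of 0.936 and a Spearman's rho of 0.901 across the members. Members are not replicates, and all share the same 2 libraries.

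**Figure D2:**
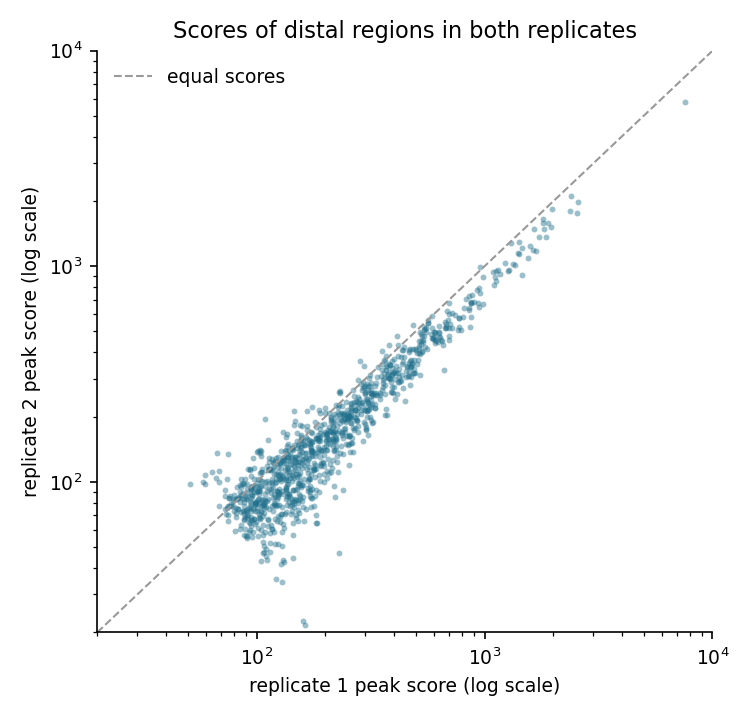
Score of each of the 1017 distal regions found in both replicates, in replicate 1 (x axis, log scale) and replicate 2 (y axis, log scale); the dashed line marks equal scores. Most points lie below the line, and the spread widens toward low scores.

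Density was highest within 2 kb of coding starts, level from 2 to 5 kb and lower farther away. The sequence that met the position rule came to 7.93 Mb, which gave 131.3 regions per Mb, against 160.2 at 1 to 3 kb and 236.1 within 1 kb. The last part below the limit, at 2 to 3 kb, had 146.1 per Mb. Within the distal set the density was 149.4 per Mb at 3 to 4 kb, 153.2 at 4 to 5 kb, 128.6 at 5 to 7.5 kb, 109.4 at 7.5 to 10 kb and 48.9 beyond 10 kb. Median scores in the first 4 of these bins lay between 300.9 and 318.5. Beyond 10 kb the 34 members had a median of 420.8. A score of at least 1000 was reached by 13.5% of members at 3 to 4 kb, 9.38% at 4 to 5 kb, 7.5% at 5 to 7.5 kb, 8.51% at 7.5 to 10 kb and 26.5% beyond 10 kb. Of the 15 strongest members, 3 were over 7 kb from a coding start, at aakg-1, F54F12.1 and slc-17.7.

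**Figure D3:**
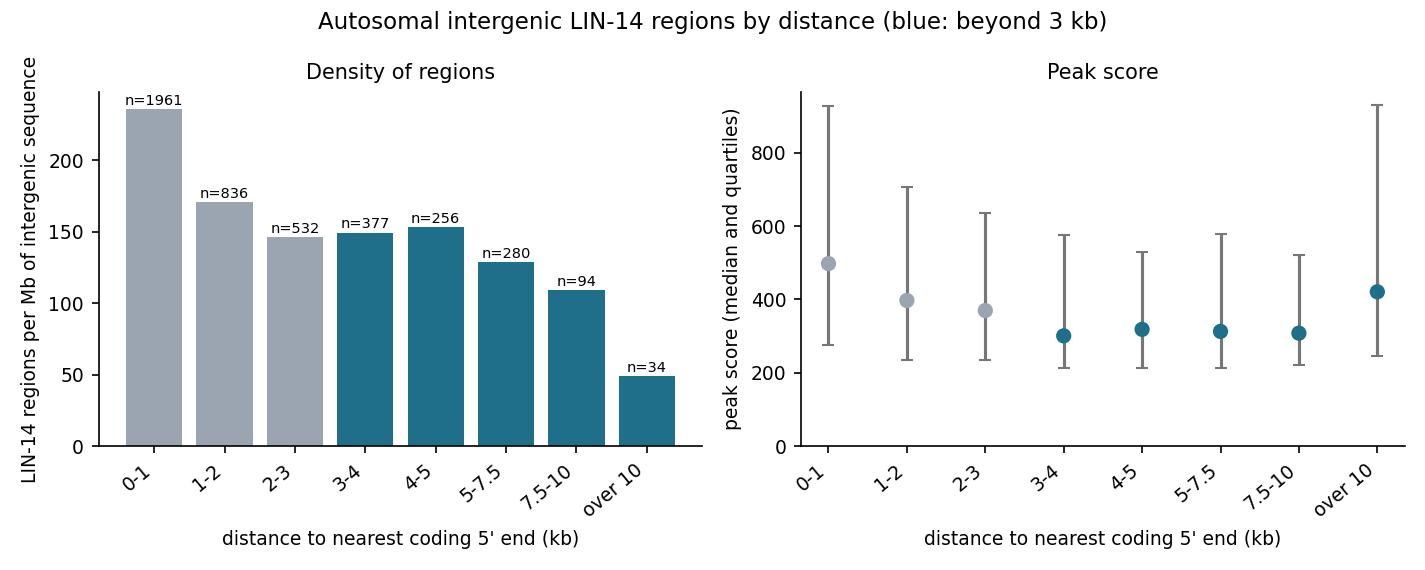
Left, autosomal intergenic LIN-14 regions per Mb of intergenic sequence by distance to the nearest coding 5′ end in kb, with the number of regions above each bar. Right, median peak score (points) with quartiles (bars). Bins beyond 3 kb are in blue; density goes from 236.1 per Mb within 1 kb to 48.9 beyond 10 kb and is level from 2 to 5 kb. Median scores from 3 to 10 kb lie between 300.9 and 318.5, and the last bin is at 420.8.

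Most distal regions lay upstream of the nearest coding gene, and few lay between converging genes. The nearest 5′ end was downstream of the summit for 781 members (75.02%), at a median of 4412 bp, against 61.6% of the sequence that met the rule. The summit lay beyond a gene's 3′ end for 260 (24.98%), at a median of 4785 bp from the 5′ end. Both shares depend on how genes lie around the available sequence, as the sequence within 1 kb of a coding start shows, of which 99.2% is upstream and which held 99.7% of its regions there. Upstream shares of regions and of sequence were 88.5% and 79.8% at 1 to 3 kb, 80.1% and 65.5% at 3 to 4 kb, and 61.8% and 56.3% for the 34 members beyond 10 kb. Median scores of members upstream and downstream were 312.0 and 317.1.

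The stretch between the flanking coding genes had a median length of 11039 bp. It was bounded by 5′ ends on both sides for 376 members (36.1%, median score 300.9), which compares with 29.9% of the sequence. A 5′ end on 1 side bounded it for 612 (58.8% against 52.9%, median 319.8) and 3′ ends only for 53 (5.09% against 16.9%, median 366.7). Stretches between 3′ ends thus held a smaller share of members than of sequence, and this was also so at 1 to 3 kb, with 2.63% of regions against 8.90%.

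Non-coding genes lay closer to the distal regions than to the sequence available to them. The genes counted were lincRNA, ncRNA, antisense RNA, microRNA, snoRNA, snRNA, tRNA and rRNA genes of Ensembl, 9426 in all. The summit lay inside such a gene for 104 members (9.99%, interval 8.24 to 11.97%), while these genes covered 2.65% of the sequence that met the rule. Within 1 kb of one lay 320 members (30.7%, interval 27.9 to 33.6%), against 15.6% of the sequence, and within 3 kb 529 (50.8%), against 31.4%. The regions at 1 to 3 kb from coding starts gave similar values, with 11.2% inside a non-coding gene against 2.45% of their sequence and 29.6% within 1 kb against 16.7%. With genes of every biotype except piRNA genes taken as bodies and starts, 500 regions in place of 1041 met the rule. Over 3 kb from the body of any such non-coding gene or pseudogene there were 494 members (47.5%), with a median score of 297.2. For coding genes the 3 kb limit applied to 5′ ends only, so these members can lie nearer to a coding 3′ end.

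Median scores were somewhat higher in and near non-coding genes, with wide overlap. The median was 368.2 for members inside one, 356.7 for 216 at 1 to 1000 bp, 289.6 for 209 beyond that up to 3 kb and 300.3 for the 512 farther away. Scores of at least 1000 did not follow this order, at 14.4%, 10.6%, 6.22% and 12.1% of the 4 sets. A non-coding 5′ end lay within 100 bp of the summit for 112 members (10.8%), with a median score of 397.1. Of these, 44 were upstream of that end and 68 downstream. The share of sequence this near to such an end, and its split by side, were not computed. Peaks around a 5′ end and peaks inside a short gene cannot be told apart for the shortest genes, since the median peak is 392 bp wide.

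By biotype, the class that Ensembl names ncRNA made up most of the overlap. It had the summit of 92 members inside (8.84% against 1.57% of the sequence) and 276 within 1 kb (26.5% against 12.6%). The 3 strongest were those at F42C5.16, T19C3.11 and C05B10.19 given above, and a weaker one lay inside Y38C1AA.16, 3228 bp upstream of tcl-2, with a score of 333.9.

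LincRNA genes held 11 members inside (1.06% against 0.852%), and 30 lay within 1 kb of 19 lincRNA genes (2.88%, interval 1.95 to 4.09%, against 1.77%). After linc-128, the strongest lay 887 bp from linc-105 (score 2816, replicates 1582 and 1246) and 172 bp from linc-151 (score 2090, replicates 1169 and 922). These and the other lincRNA genes named here were chosen after their values were seen, as were the strongest members within 1 kb of a gene of each other biotype. In linc-129, upstream of sca-1, the calcium pump gene of the sarcoplasmic reticulum, there were members of 702.5 and 179.0, and another at 291 bp scored 297.9. A summit inside linc-57, 7766 bp upstream of the Hox gene lin-39, scored 478.9.

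MicroRNA genes had 15 members within 1 kb (1.44%, interval 0.809 to 2.37%, against 0.726% of the sequence). The strongest lay inside cel-mir-8209 and 3324 bp upstream of jph-1, the gene for junctophilin, which couples the plasma membrane to calcium stores in muscle (score 2207, replicates 1268 and 947.7). A member 241 bp upstream of cel-mir-80, a microRNA related to the Drosophila growth regulator bantam, scored 1601 (replicates 934.3 and 675.3). It was 11520 bp from the nearest coding 5′ end. Another lay inside cel-mir-8189, upstream of the calcium pump gene mca-2, and scored 164.5.

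SnoRNA genes had 22 members within 1 kb (2.11%, interval 1.33 to 3.18%, against 0.639%), led by one 266 bp from C26C6.13 (score 2068, replicates 1141 and 961.5). One summit lay inside a snoRNA gene, R07G3.16, upstream of R07G3.8 (309.3). Transfer RNA genes had 14 (1.34%, interval 0.737 to 2.25%, against 0.750%), led by one 35 bp from a tRNA gene upstream of K02B2.6 (901.0). A member with its summit inside a tRNA gene on chromosome III scored 214.0, and 70.4% of the 31-base words in that region's summit window occurred elsewhere in the genome. The antisense RNA gene C02F4.12, upstream of the calcineurin gene tax-6, had members at 77 bp (536.8) and 458 bp (267.3). No member lay within 1 kb of an snRNA or rRNA gene. These covered, with 1 kb to either side, 0.283% and 0.343% of the sequence, and 0 of 1041 allows a share of up to 0.354% (the upper bound of the exact interval), so absence was not detectable with this number of members. The closest member to an snRNA gene lay 2405 bp from T27E4.11, near the heat shock gene hsp-16.1 (289.6).

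Pseudogenes and piRNA genes showed the opposite pattern. Pseudogenes covered 12.6% of the sequence and held 2 summits (0.192%, interval 0.0233 to 0.692%). Within 1 kb of one lay 17 members (1.63%) against 18.9% of the sequence. The treatment of reads that match several places was not given in the sources used here. Its part in the low share was not tested. The piRNA genes, which encode small RNAs that silence foreign sequence in the germline, lie mostly in clusters on chromosome IV, with 14714 of them there. Within 1 kb of a piRNA gene lay 93 members (8.93%) against 16.6% of the sequence, 82 of them on chromosome IV, and no summit lay inside one. A like pattern held at 1 to 3 kb from coding starts, with 0.219% of summits in pseudogenes against 14.3% of the sequence.

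**Figure D4:**
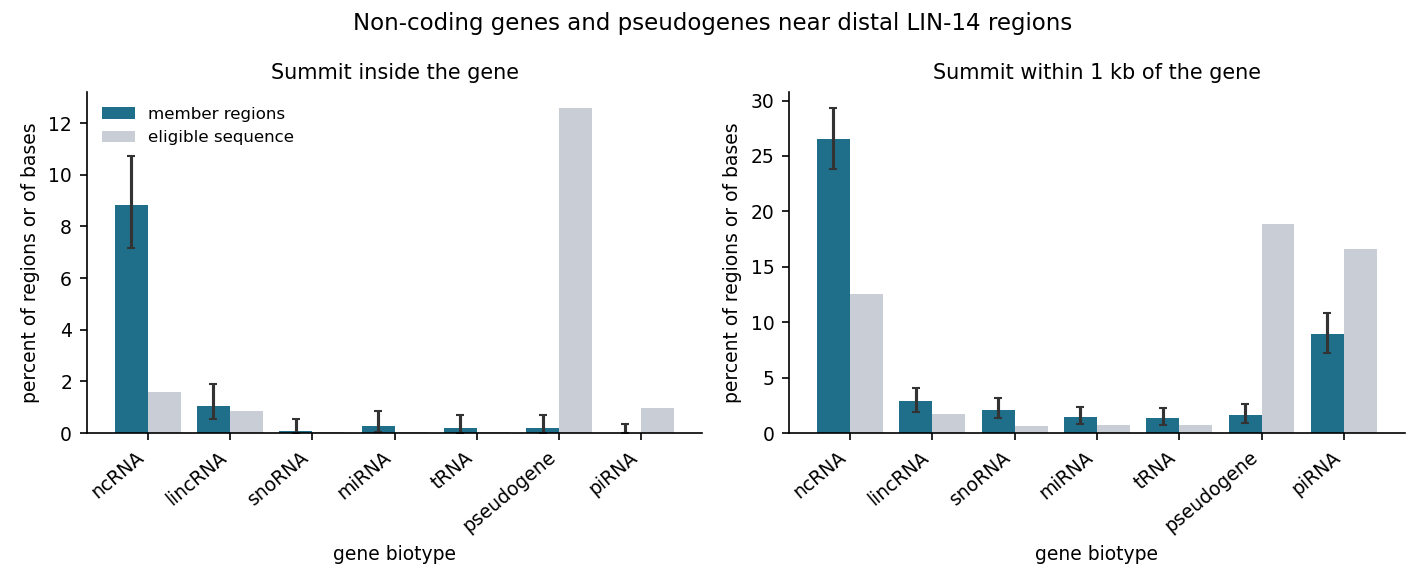
Percent of the 1041 distal regions (blue, with 95% exact binomial intervals) and percent of the bases that met the position rule (grey) that lie inside a gene of each biotype (left) or within 1 kb of one (right). Blue exceeds grey most for ncRNA genes (8.84% against 1.57% inside) and grey exceeds blue most for pseudogenes (0.192% against 12.6% inside).

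The nearest coding genes numbered 701, of which 475 had 1 member, 153 had 2 and 73 had 3 or more. Position upstream or downstream does not show that a gene responds to LIN-14, and a share of members by nearest gene also reflects how much empty sequence lies beside the genes of a family. Families of developmental regulators differed in their share of members, which is set here beside their share of coding genes and of the nearest genes of all 4370 autosomal intergenic regions, members included. The share of coding genes was taken over all chromosomes, X included, while the regions were autosomal only. Families were set by symbol prefix or by a fixed list, so the counts depend on which genes were listed. Homeobox genes were nearest to 18 members at 12 genes (1.73% of members, against 0.501% of coding genes and 1.03% of intergenic regions), with a median score of 248.1. They were led by ceh-22, an NK-2 class factor of pharyngeal muscle. Its member lay beyond the 3′ end, 19 bp from the non-coding gene F29F11.17 (score 1051, replicates 594.2 and 467.0). Members at ceh-13, the Hox gene related to labial, and at zfh-2 followed, 6505 and 8947 bp upstream, with scores of 652.6 (replicates 357.0 and 295.9) and 624.6 (333.4 and 287.5).

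Nuclear hormone receptor genes were nearest to 24 members at 13 genes (2.31% against 1.37% of coding genes and 1.67% of intergenic regions), with a median score of 461.5. After nhr-20 the strongest were a member upstream of nhr-258 (score 1353, replicates 773.9 and 577.5) and one upstream of nhr-31 (1318, replicates 720.6 and 608.7), which are close together on chromosome IV. Wnt pathway genes were nearest to 8 members at 5 genes (0.768% against 0.150% and 0.572%), with a median of 231.6. Of these, a member of 1178 lay beyond sfrp-1, a secreted Wnt antagonist, and 1 of 822.6 upstream of lit-1, the Nemo-like kinase gene. Axon guidance genes were nearest to 11 members at 8 genes (1.06% against 0.185% and 0.732%), with a median of 261.9. The strongest in this list was at dlk-1, a kinase of axon regeneration and synapse formation (score 2361, replicates 1461 and 910.9, 3089 bp upstream). The list did not hold madd-2, named after its value was seen, whose strongest member scored 1359.

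Other families gave few members each, and their shares are given in the same order. Forkhead genes had 4 (0.384% against 0.0751% of coding genes and 0.275% of intergenic regions). Among them were 1 nearest daf-16, the FOXO factor of insulin signalling (1048), and 1 nearest pha-4, which specifies the pharynx (294.7). Both lay beyond the 3′ end of the gene. Listed body wall muscle genes also had 4 (0.384% against 0.325% and 1.03%). After jph-1 came pat-2, an alpha integrin (513.6), and unc-15, the paramyosin gene (287.9, beyond its 3′ end). The gene sca-1, nearest to the members of 702.5, 297.9 and 179.0 given above, was not counted among them. Ribosomal protein genes had 4 (0.384% against 0.416% and 0.709%), led by rps-25 (1546). Neuropeptide genes had 6 (0.576% against 0.536% and 0.503%), led by flp-15 (366.7), and cuticle collagen genes had 3 (0.288% against 0.876% and 0.389%), led by dpy-10 (1200). The leading members at flp-15 and dpy-10 also lay beyond the 3′ end of the gene. With 3 to 6 members each, none of these shares is precise.

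The only heterochronic gene was blmp-1, with a member 3088 bp upstream of it inside the non-coding gene F25D7.8 (1074), which made 0.0961% of members against 0.125% of coding genes and 0.252% of intergenic regions. Single members lay nearest hlh-10 (269.9, beyond its 3′ end) of the bHLH genes (0.0961% against 0.200% and 0.297%), tbx-33 (963.1) of the T-box and Sox genes (0.0961% against 0.125% and 0.0458%) and ins-17 (429.8) of the insulin-like genes (0.0961% against 0.195% and 0.0458%). Hedgehog-related genes had 2, both at grl-8 (0.192% against 0.295% and 0.137%). Histone genes, 0.300% of coding genes and 0.343% of intergenic regions, had none, and since 0 of 1041 allows a share of up to 0.354%, their absence was not detectable with this number of members.

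Chemoreceptor, F-box and C-type lectin genes made up a smaller share of members than of coding genes. Chemoreceptor genes made up 6.50% of coding genes and were nearest to 13 members (1.25%), against 0.664% of all autosomal intergenic regions. They were led by srab-24 at 10725 bp (1612). F-box genes had 3 members (0.288%, against 1.58% of coding genes and 0.389% of intergenic regions) and C-type lectin genes had 1 (0.0961% against 1.19% and 0.252%). The cytochrome P450 and glucuronosyltransferase genes had 1, at cyp-23A1 (159.9), which made 0.0961% against 0.706% and 0.389%.

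Neighbouring LIN-14 regions lay about as close to the distal regions as to those at 1 to 3 kb. Another region of any class lay within 2000 bp of the summit for 704 members (67.6%), compared with 69.7% of regions at 1 to 3 kb, 47.7% within 1 kb and 60.4% of all 11115. The median distance to the nearest one was 1411 bp for the members, 1303 bp at 1 to 3 kb, 2153 bp within 1 kb and 1546 bp over all regions. There were 48 members (4.61%) with none within 10000 bp, against 6.03% of all regions. Linking members whose summits lay within 10000 bp of the next gave 128 groups of 3 or more, with 515 members (49.5%). Whether this is more than the density of 131.3 members per Mb gives was not tested, and the groups serve only to describe neighbouring members.

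The largest group held 13 members over 10873 bp between snt-1, a synaptotagmin gene, and egl-27, which encodes a relative of the chromatin protein MTA1 that carries a GATA-type zinc finger and acts in cell polarity and Hox-dependent patterning. Its scores ran from 176.6 at 3636 bp upstream of egl-27 to 1909 at 7383 bp upstream (replicates 1095 and 816.9), the latter inside the non-coding gene F31E8.17. Further high members stood at 10910 bp (1286), 11595 bp (1114) and 12475 bp (1537) upstream. Of the 11 members counted for GATA-type genes, 10 were at egl-27. These 11 made 1.06% of members, against 0.0601% of coding genes and 0.389% of intergenic regions. From 15 kb upstream of egl-27 to 1 kb beyond its 3′ end there were 28 regions, of which 13 were these members and 10 lay in coding gene bodies.

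The second group held 10 members over 13914 bp between the aspartic protease gene asp-13 and ZC190.4 on chromosome V. It peaked at the member nearest ZC190.4, 3643 bp upstream and inside the non-coding gene ZC190.14 (score 1456, replicates 871.6 and 581.9). The third held 9 members over 9170 bp between T28C12.6 and bcl-11, a zinc-finger transcription factor gene. Its highest score, 1115 (replicates 565.4 and 548.1), was farthest from bcl-11, at 14810 bp upstream, and 4 of its summits lay inside non-coding genes. The fourth, 8 members between T23E1.1 and Y67D8B.1 on chromosome IV, ranged from 149.7 to 2549. Of the 4 groups of 7 members, the one with the shortest span, 6177 bp between W04D12.1 and ddx-23, a splicing helicase gene, ranged from 166.2 to 1942.

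**Figure D5:**
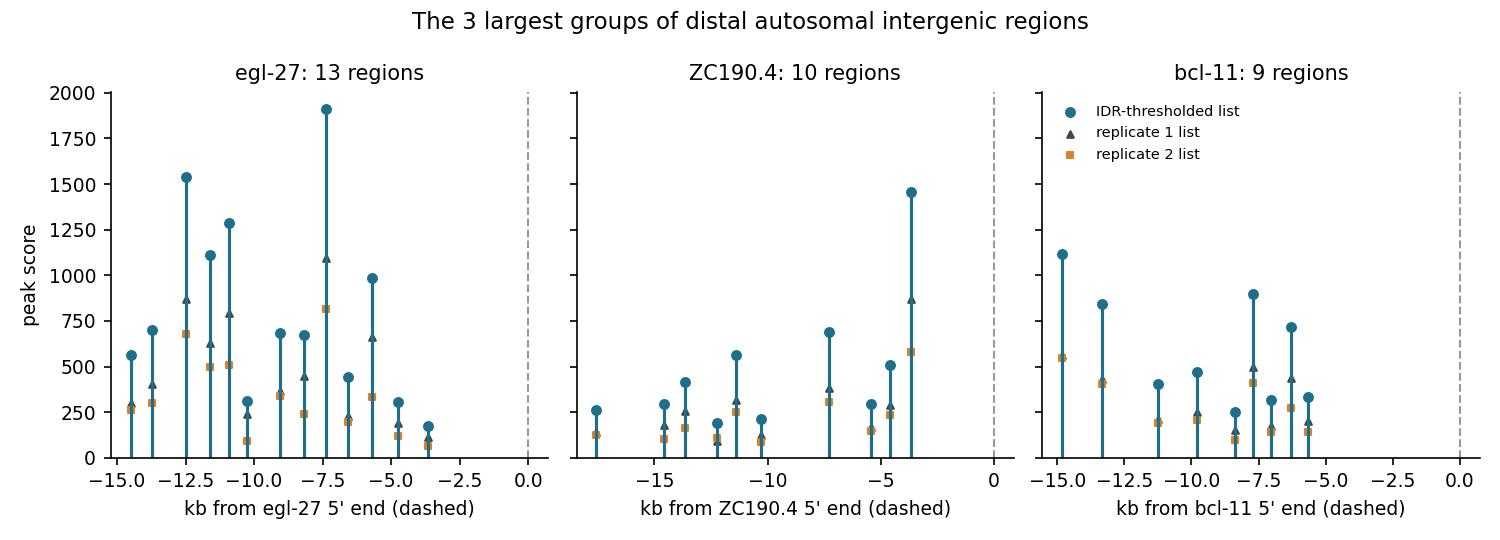
Peak score of each member of the 3 largest groups against its distance in kb from the 5′ end of the coding gene at 1 side (dashed line at 0; minus is upstream). Circles with stems are the IDR-thresholded list, triangles replicate 1 and squares replicate 2. At egl-27 the highest score is 1909 at 7383 bp upstream, and the next 3, 1286, 1114 and 1537, are the 3 members between 10910 and 12475 bp upstream, while the highest member at ZC190.4 is the one closest to the gene.

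The 5 autosomes contributed similar numbers of members, from 193 on II to 221 on V, but differed in density. Per Mb of sequence that met the rule there were 171 members on I, 167 on III, 151 on II, 126 on V and 88.1 on IV. Chromosome IV had the most such sequence, 2.47 Mb. Intergenic regions beyond 3 kb on X, outside this set, numbered 477 at 185 per Mb. Median scores ranged from 293.9 on V to 345.2 on III. The arms of the autosomes, taken as the outer parts when each is cut into 3 equal lengths, held 583 members (56.0%, interval 52.9 to 59.0%) but 72.0% of the sequence. The density there was 102 per Mb, against 207 in the central part, and the median score was 332.9 against 291.3. The same order held at 1 to 3 kb, with 123.7 and 234.9 per Mb, and within 1 kb, with 168.9 and 358.6.

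The summits were richer in G and C than their surroundings. The median GC content of the 101 bp window was 42.6%, against 32.7% and 33.7% for windows centred 300 bp to the left and right, and the sequence that met the rule had 34.5%. Summit windows had a like median at 1 to 3 kb, 42.6%, and over all regions, 43.6%. Soft-masked sequence, which marks repeats in the reference, held 199 summits (19.1%) against 43.0% of the bases. The same order held at 1 to 3 kb, with 17.3% of summits against 39.5% of the bases. Repeated 31-base words were present in 16 members (1.54%), and none of the 113 members with a score of at least 1000 had them over most of the window.

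Searched on both strands, GAGAG, marked in the sequences above, occurred in 492 summit windows (47.3%, interval 44.2 to 50.3%), against 12.2% and 13.3% in the flanking windows. It was present in 42.2% of the summit windows of all 11115 regions and in 47.6% of those at 1 to 3 kb. By quartile of score the share was 39.1%, 37.7%, 47.3% and 65.0% from low to high. Members with it had a median score of 378.5 and those without it 276.4. TGCGTC occurred in 106 windows (10.2%) against 1.44% and 1.25% in the flanks and 10.9% over all regions. The 74 members with both had a median score of 505.6, and 517 members (49.7%) had neither.

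The GGA-centred sequences linked to LIN-14 by earlier binding studies gave mixed values. CGGAG was in 15.7% of summit windows against 5.38% and 7.78% in the flanks, and TGGAG in 20.8% against 13.0% and 13.6%. CGGAA was in 20.8% against 15.1% and 14.9%. TGGAA went the other way, with 22.8% at the summits, 30.9% and 31.5% in the flanks and 22.1% over all regions. The flanks were more AT-rich than the summits for every word compared, GAGAG and TGCGTC included. The part of base composition in these differences was not tested. The palindrome CACGTG, a site for bHLH factors, was in 4.23% against 1.63% and 2.11%, and in 4.82% over all regions. The GATA sequences TGATAA (9.70% against 7.97% and 9.89%) and AGATAA (7.20% against 7.88% and 6.82%) differed by under 2 percentage points from either flank. Their shares over all regions were 8.49% and 6.99%. TTCCGGAA and TGACTCA were each in under 1% of windows, with 3 and 10 matches. Among all 6-base words, GAGAGA, named after its values were seen, had the greatest excess at the summits, with 31.7% against 5.67% on either side. It was in 26.8% of the summit windows of all regions. A match is a description of the letters in the window and does not show a binding site.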

How the data were processed

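For 2 biological replicates there were 4 deposited peak lists in ce11 coordinates: 11507 peaks that passed the IDR threshold, 24683 called on both replicates together, and 25357 and 27170 called on replicates 1 and 2, per the README texts of the deposited samples. Each peak has the authors' score and, as another deposited value, the offset of its summit from the peak start. Aligner, peak caller and IDR cut-off: not given in the sources used here. The control named by the labels was not analysed here. Scales of the scores differ between lists.

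Overlapping peaks of the IDR-thresholded list were merged, and genes came from Ensembl release 115 (WBcel235), with sequence from RefSeq. Chromosome lengths fitted the peak coordinates. Positions count from 1, and distances are negative upstream. The sequence that met the position rule was counted base by base. Replicate peaks were matched by summits within 100 bp. Motifs were sought within 50 bp of the summit and in windows centred 300 bp away. Intervals are 95% Clopper-Pearson intervals, which cover counting only and treat neighbouring regions as independent. With 1 group there was no contrast to test, so all values are descriptions. Python 3.11.15, pandas 2.3.3, numpy 2.4.6 and scipy 1.17.1 were used, and the merging, classing and matching steps were tested on made-up data. Named regions are the 15 with the highest score, the lowest, those nearest to and farthest from a coding start, the nearest to each non-coding biotype, up to 3 per family of nearest genes and the 5 largest groups of 3 or more, ties going to the shorter span. Genes beyond that are marked as chosen after their values were seen. The members and lists were chosen with earlier results of these data known. Alternatives covered the distance limits, merging, score, list, matching distance, gene biotypes and window.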

Additional observations from a re-analysis of the deposited data

How the results depend on the processing

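The number of members, 1041, became 1573 with a limit of 2 kb, 408 with 5 kb, 437 in the regions at or above the median score, 1987 in the pooled list and 500 with genes of every biotype except piRNA. With the top peaks of a single replicate it was 1008 to 1032. In the regions at or above the median score, the members' median score was 659, a rise fixed in advance by picking on score. Among these members the match in both replicates was 99.8% and the share within 1 kb of a non-coding gene 35.7%. The share on the arms was 60.4%, GAGAG 58.6% and TGCGTC 13.96%. With the 2 kb limit the median score was 329, and the median distance was 3620 bp, against 6397 bp with 5 kb. The match was 87.2% within 50 bp, 98.8% within 250 bp and 98.9% for any overlap. Counting piRNA genes raised the shares within 1 and 3 kb of a non-coding gene to 37.3% and 57.2%. The share of sequence also rises with piRNA genes counted, and was not computed for this wider set. Within 1 kb of a piRNA gene lay 16.6% of the sequence and 8.93% of members, and within 3 kb 20.8% and 13.5%. Windows reaching 100 bp to either side held GAGAG in 66.3% and TGCGTC in 14.7%. With flanks at 500 bp, the summit share minus the higher flank changed sign for AGATAA, to 1.15 percentage points, and for TGACTCA, to -0.384. The other 67 values of the main results lay within the interval of the reported share or median, or within 1.5 times the reported count. No member lay near unc-119, so leaving that locus out changed nothing. No paired analysis was possible because there was only 1 group. Read depth is unknown, so weak peaks cannot be set against a detection limit.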
